A study of Mus musculus with 8 samples.

Results

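The data described here are the small RNA levels of 2 loci, piRNA_cluster_177 and Lars2, along the purification of the chromatoid body from mouse testis. The members were the rows of those names, 2 of the 5096 features listed for the supernatant, 3005 for the pellet, 2543 for the ACR immunoprecipitate, 8959 for the MVH immunoprecipitate and 1014 for round spermatids. Both were listed in all 5 tables, each at a single locus. They were picked with their high values in the pellet and immunoprecipitate tables known, so the levels and ratios below are a description and carry no test. In mm9 coordinates piRNA_cluster_177 is chr17:39983504-39984882, a span of 1379 bases, and Lars2 is chr9:123276057-123371782, a span of 95726 bases.

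All 8 libraries held RNA of 19 to 33 nt from C57BL/6 mice of at least 6 weeks. Collagenase released the cells from the tubules. They were fixed with formaldehyde and lysed by sonication in RIPA buffer, and a spin parted the supernatant from a first pellet. A second round of sonication, with filtering and a spin, gave a second pellet, from which the precipitates were made. The groups were lysate, supernatant, first pellet, second pellet, an immunoprecipitate (IP) with an MVH antibody, a control IP with an antibody to acrosin (ACR), and sorted round spermatids, whose title carries hetMIWI with no further word on genotype. MVH IP had 2 libraries and every other group 1. The MVH IP table gave a single column for its 2 libraries and the pellet table a single column tied by the labels to both pellets, so no value has a replicate error and differences compare libraries, not conditions.

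The chromatoid body is a large cytoplasmic granule of haploid male germ cells that gathers RNA-binding proteins, among them MVH (the DDX4 RNA helicase) and PIWI proteins. piRNA clusters are the genomic loci that give rise to PIWI-interacting RNAs, the small RNAs that guide PIWI proteins. Ribosomal RNA (rRNA) is cut from a long precursor made in the nucleolus, and its fragments are common in libraries of small RNA. Lars2 encodes the mitochondrial leucyl-tRNA synthetase, which charges leucine tRNA in mitochondria.

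The label of these loci as ribosomal RNA-like was checked against gene annotation and transcript sequence of GRCm38, a later build than the mm9 of the files. No coordinate was carried from one build to the other, and the cluster's own bases were not read. In the mm9 tables the cluster lies 2313 bases after Mir715, an entry annotated as a microRNA, and before Pgk2. RefSeq's GRCm38 order leads to Pgk2 from Rn18s-rs5, an 18S rRNA copy listed as a pseudogene, through AY036118, Esp38 and Tgif2-ps2. In GENCODE M21 that place holds the rRNA transcript of CT010467.1, annotated on the minus strand at chr17:39846353-39848201 and 1849 bases long. The plus-strand transcript of Gm42418 overlaps it (chr17:39846958-39848788, single exon). The first 300 bases of the Gm42418 transcript (GRCm38, chr17:39846958-39847257, plus strand) lie in the reverse complement of CT010467.1, at its positions 606 to 905 counted from its 5′ end. That position follows from the coordinates, since both transcripts cover the same bases there on opposite strands, so it is no separate check. The 300 bases are shown as a stretch of the 18S copy annotated on this chromosome, not as the sequence of the cluster.
18S rRNA stretch: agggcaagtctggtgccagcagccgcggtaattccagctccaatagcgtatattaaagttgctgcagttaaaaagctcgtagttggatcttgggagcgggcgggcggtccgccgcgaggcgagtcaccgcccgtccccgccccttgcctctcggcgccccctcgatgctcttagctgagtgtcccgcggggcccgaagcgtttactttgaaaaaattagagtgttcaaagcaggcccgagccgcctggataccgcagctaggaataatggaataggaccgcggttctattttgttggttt
The mm9 and GRCm38 orders share only Pgk2 as a flank. Whether the cluster holds or adjoins the 18S copy was therefore not tested.

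For Lars2 the GENCODE transcript (GRCm38, chr9:123366927-123462664, plus strand, 21 exons, 3894 bases, coding positions 200 to 2905) was compared with the same rRNA sequences on both strands. The longest exact run it shared with the 18S sequence was 13 bases. It shared 12 bases with Gm26917, whose transcript is annotated just before the 18S copy, 14 with the mitochondrial rRNA mt-Rnr1, 12 with mt-Rnr2 and 14 with the best of 180 transcripts of the 5S rRNA family n-R5s. All of these were shorter than the shortest insert of 19 nt. The windows with the longest run shared with the 18S sequence are shown to make the size of that match visible, with the shared run in capitals.
Lars2 transcript positions 3808 to 3837: atgagactCTTGTCTCAAAGAactaccagg
18S rRNA positions 22 to 51: agcatatgCTTGTCTCAAAGAttaagccat
The 28S rRNA was not used here, so a match of Lars2 to it was not tested. The sequences used cannot decide whether Lars2 holds rRNA-like bases, so both loci are called by their row names.

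A second look, chosen after the values were seen, asked where Lars2 mRNA could share whole inserts with other genes. Of its 3876 positions that start a run of 19 bases, 97 (2.50%) had that run in a transcript of some other gene on either strand, 16 genes in all. Of these positions, 79 lay in a stretch of 178 bases in the 3′ UTR (transcript positions 3172 to 3349), and 18 lay elsewhere. The genes sharing most were AA474408, with 63 positions and a longest run of 41 bases, and Gm15564, with 35 positions and a longest run of 52 bases. The other 14 genes shared at most 3 positions each. The middle of each of these 2 runs is shown in capitals, since reads from such bases fit more than one locus.
Lars2 with AA474408, Lars2 positions 3177 to 3206: GAAAAGTTACCACAGGGATAACTGGCTTGT
Lars2 with Gm15564, Lars2 positions 3289 to 3318: GCGTTGGATTGTTCACCCACTAATAGGGAA
Copies of these bases outside annotated transcripts were not searched for, and whether the bases are rRNA sequence was not tested. Levels of AA474408 and Gm15564 were not analysed here. The sources used here do not say how the authors placed a read that matches several loci. The tables give 1 level per locus, so which bases of Lars2 the reads came from was not tested.

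Levels were in FPKM, a count of fragments scaled to feature length and library size, as the authors deposited them, and each table was normalized on its own. The lysate is the same library in 3 tables. Both members were 2.39 times as high in the lysate column of the pellet table as in that of the supernatant table. In the ACR IP table they were 2.01 times (piRNA_cluster_177) and 1.99 times (Lars2) as high, where the median over shared features was 2.07. Fractions are therefore set against the lysate of their own table. In bulk samples fewer cells of a type and less RNA per cell cannot be told apart.

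piRNA_cluster_177 was listed at 4635 FPKM in the lysate and 5393 in the supernatant of the supernatant table. In the pellet table it was at 11080 in the lysate and 11581 in the pellet. In the ACR IP table it was at 9316 in the lysate and 4257 in the IP. It stood at 28330 in the MVH IP and 740 in round spermatids. The cluster was the highest piRNA cluster in every column except round spermatids. It ranked 1 of 181 clusters in the supernatant table, 1 of 180 in the pellet and ACR IP tables and 1 of 195 in the MVH IP table, but 83 of 181 in round spermatids, between piRNA_cluster_60 (763) and piRNA_cluster_92 (734).

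Lars2 was listed at 252 FPKM in the lysate and 277 in the supernatant of the supernatant table. In the pellet table it was at 604 in the lysate and 1287 in the pellet, and in the ACR IP table at 502 in the lysate and 623 in the IP. It stood at 4220 in the MVH IP and 77.3 in round spermatids. Among named genes, those that are no cluster, microRNA, structured RNA or assembled transcript, Lars2 came 11 of 3615 in the lysate and 10 of 3615 in the supernatant. It came 1 of 1890 in the pellet, where the gene below it was 1700020N18Rik (554), and 1 of 6393 in the MVH IP, above 2810433D01Rik (2903). In the ACR IP it came 7 of 1772, with Plekhg4 (1551) at the top. In round spermatids it came 25 of 345, between Gm10845 (82.6) and BC026590 (76.2), far under the top gene Tmem38b (8807).

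**Figure D1:**
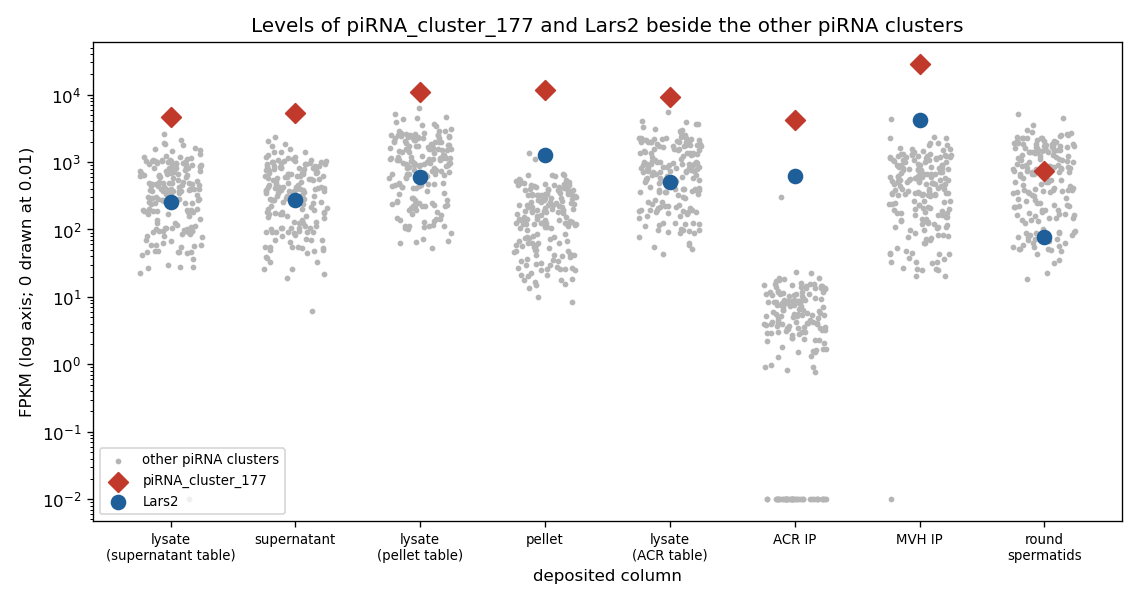
FPKM on a log axis (0 drawn at 0.01) in each deposited column, 1 value per feature, with piRNA_cluster_177 as a red diamond, Lars2 as a blue circle and the other piRNA clusters as grey points. The cluster stands above all grey points except in round spermatids (740 FPKM), and Lars2 lies among the clusters in the lysate columns and above all of them but piRNA_cluster_39 in the pellet and MVH IP.

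The distance of piRNA_cluster_177 from the other clusters differed between columns. It was 11.8-fold over their median in the lysate of the supernatant table (11.7 and 12.5 in the other lysate columns) and 14.6-fold in the supernatant. It was 73.5-fold over in the pellet and 63.4-fold in the MVH IP. In the ACR IP it was 1005-fold over their median, with 42 of the 179 other clusters listed at 0, or 686-fold over those above 0. In round spermatids it was 1.12-fold over the median. The next cluster down was piRNA_cluster_79 in the lysate (2653 FPKM, in the supernatant table) and supernatant (2371). It was piRNA_cluster_39 in the pellet (1354, 8.55-fold lower), ACR IP (299.7, 14.2-fold lower) and MVH IP (4308, 6.58-fold lower).

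FPKM is per length, and this cluster is short: 28 of 180 others were shorter, with a median length of 3594 bases. Level times length, which stands for the amount of RNA, gave another order. By that measure the cluster held 0.433% of the amount from all clusters in the lysate (rank 50) and 0.530% in the supernatant (rank 42). It held 2.50% in the pellet (rank 7), 1.90% in the MVH IP (rank 10) and 24.5% in the ACR IP (rank 1). In round spermatids it held 0.0373% (rank 116). The ACR IP thus gave the cluster its largest share and the sorted cells its smallest, among these columns.

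**Figure D2:**
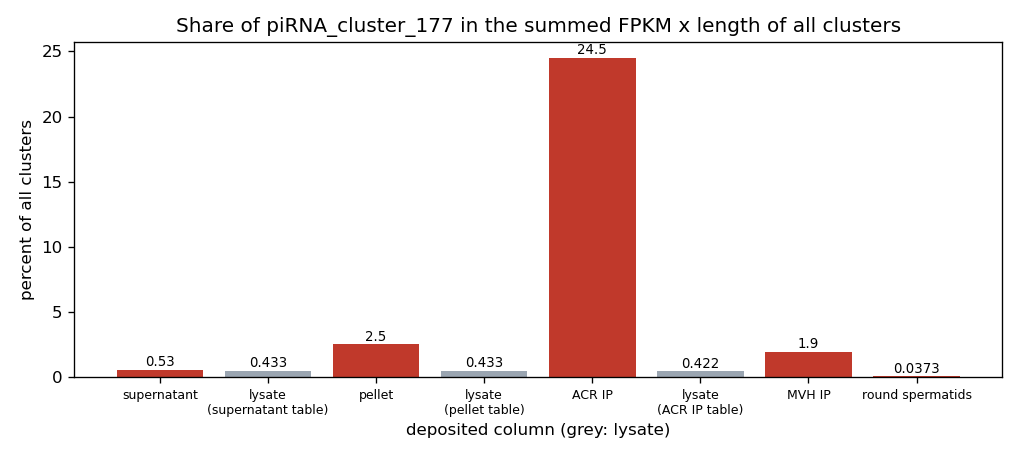
Share of piRNA_cluster_177, in percent, in the sum of FPKM times locus length over all piRNA clusters, 1 bar per deposited column with lysate columns in grey. The 3 lysate bars lie at 0.422 to 0.433%, the pellet at 2.50%, the MVH IP at 1.90% and the ACR IP at 24.5%.

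Against the lysate, the supernatant differed little at either locus. The log2 ratio of supernatant to lysate, with 1 FPKM added to both, was 0.22 for piRNA_cluster_177 (SE 0.0083, a 1.16-fold difference) and 0.13 for Lars2 (SE 0.020, 1.10-fold). These SEs come from the authors' test statistic and cover the error of their model for these libraries only. The cluster's ratio ranked 9 of 181 clusters, between piRNA_cluster_131 (0.24) and piRNA_cluster_12 (0.21). The other clusters had a median of -0.07 and quartiles of -0.14 and 0.01. Lars2 came 1285 of 3528 named genes, whose median was 0.02. In the authors' deposited table the cluster was called (q-value 0) and Lars2 was not (q-value 2.65e-09). A small q-value was thus not enough for a call, here or in the pellet below, and the rule behind the call is not known here. Of the 4999 features that reached 1 FPKM, the authors' deposited table called 0.96% higher and 1.62% lower in the supernatant. Neither member differed by 2-fold. Over all features 7.16% were 2-fold or more above their lysate level and 5.42% as far below it, and 7% were above it by that much after centring on the median of all features.

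In the pellet piRNA_cluster_177 was close to its lysate level and Lars2 above it, while most features were lower. The log2 ratio of pellet to lysate was 0.06 for piRNA_cluster_177 (SE 0.010, 1.05-fold) and 1.09 for Lars2 (SE 0.023, 2.13-fold). The other 179 clusters had a median of -2.45 and a range of -3.28 to -1.91, so none overlapped piRNA_cluster_177. The nearest was piRNA_cluster_39 (1354 FPKM in the pellet, 5082 in the lysate). Relative to their median the cluster was 5.69-fold higher. Of 3005 features, 86.5% were lower by 2-fold or more in the pellet. Lars2 was among the 8.75% that were higher by that much. After centring on the median of all features, -2.20, both members were in the 14.6% that were higher by 2-fold or more.

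Lars2 came 134 of 1890 named genes in the pellet to lysate ratio, and the median of the other named genes was -2.01. Relative to that median it was 8.60-fold higher, a log2 difference of 3.10 that became 1.69 with 10 FPKM added and 3.74 with 0.1 FPKM added. Among the 20 named genes nearest to Lars2 in lysate level, from 239 to 848 FPKM, the median ratio was -2.59 and the highest -2.08 (Rps15, a small ribosomal subunit protein gene), so none reached Lars2. In the authors' deposited table Lars2 was called (q-value 0), one of 21 features called higher (0.699%, against 18.7% called lower), and piRNA_cluster_177 was not called (q-value 3.80e-09).

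In the ACR control IP the cluster was lower than in the lysate, by less than the other clusters were. Its log2 ratio to lysate was -1.13, a 2.19-fold lower level. The other 179 had a median of -7.20 and reached at most -3.63 (piRNA_cluster_39), with 42 of them listed at 0. Relative to their median the cluster was 67.4-fold higher on this scale, a log2 difference of 6.07 that became 4.59 with 10 FPKM added. Lars2 had a ratio of 0.31, 1.24-fold higher than in the lysate. Named genes were widely spread, with quartiles of -3.08 and 2.81 around a median of -0.24, and 866 of 1768 others stood above Lars2. Against genes of its own lysate level the picture differed, since the 20 nearest, from 195 to 1529 FPKM, had a median of -7.03 and a highest value of -2.79 (Tmem38b). The comparison of Lars2 with all named genes turned its sign when genes listed at 0 in either column were left out (-1.82 in place of 0.55 relative to the median). Of all features, 59% were lower by 2-fold or more, among them the cluster, and 36.4% higher. After centring on the median of all features, -2.70, both members were in the 43.2% that were higher. This library is the control precipitate, and the levels in it stand beside those of the MVH IP without a test.

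**Figure D3:**
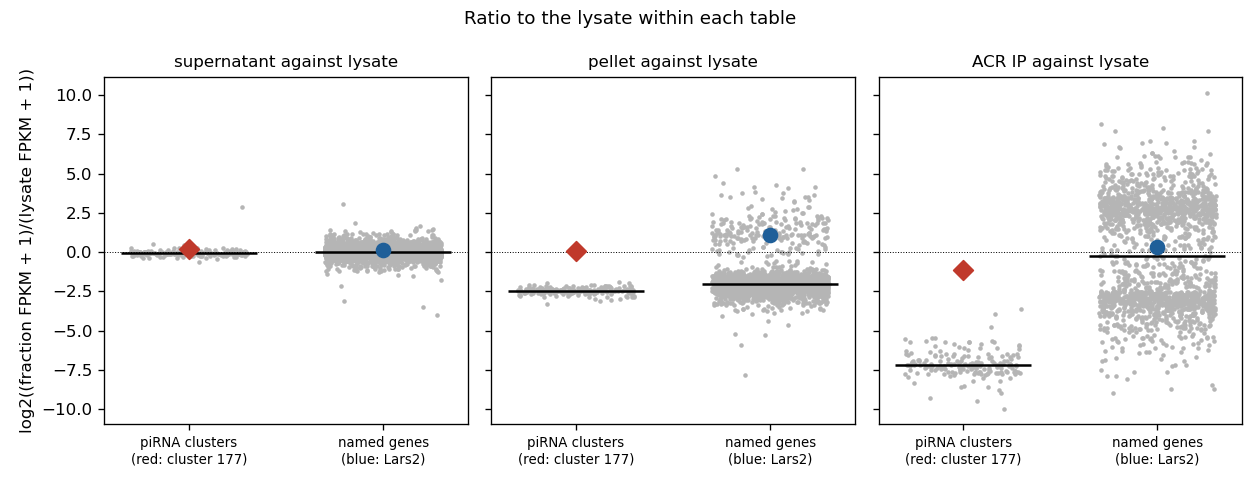
Log2 ratio of fraction to lysate level with 1 FPKM added, for piRNA clusters and named genes at or above 1 FPKM in either column, 1 point per feature, black bars at the median of the other features and members in colour. The cluster lies at 0.06 in the pellet and -1.13 in the ACR IP with no grey cluster near it, and Lars2 lies at 1.09 and 0.31.

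Values for MVH IP and for round spermatids have no lysate column beside them, so only positions within a column can be given. In the MVH IP, piRNA_cluster_177 was 5.94 above the median of the other clusters on the log2 scale with 1 FPKM added, and Lars2 10.16 above that of the other named genes listed above 0. The value for Lars2 became 8.38 with 10 FPKM added and 11.13 with genes at 0 included, and that for the cluster 6.91 against clusters within 3-fold of its length. In round spermatids the cluster was 0.16 above and Lars2 2.48 above. The values for Lars2 rest on unlike sets of other named genes. Those above 0 numbered 4113 in the MVH IP (median 2.69 FPKM) and 337 in round spermatids (median 13.0). The value for the cluster in round spermatids became 1.43 when only clusters within 3-fold of its length were used. Round spermatids are the cells that hold the chromatoid body, and the sorted cells were the library in which both members ranked lowest. Whether the sort, the genotype label or the separate library preparation moved with this was not tested.

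The members also moved apart from each other. The cluster's level divided by that of Lars2 was 18.4 in the lysate of both the supernatant and pellet tables and 18.5 in that of the ACR IP table. It was 19.5 in the supernatant, 9.0 in the pellet, 6.84 in the ACR IP, 6.71 in the MVH IP and 9.58 in round spermatids. Against the lysate the ratio fell 2.04-fold in the pellet (log2 change -1.03, SE 0.025) and 2.71-fold in the ACR IP (-1.44), and was 0.09 higher in the supernatant (SE 0.022). These ratios need no scaling between columns, since both values of a ratio share 1.

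**Figure D4:**
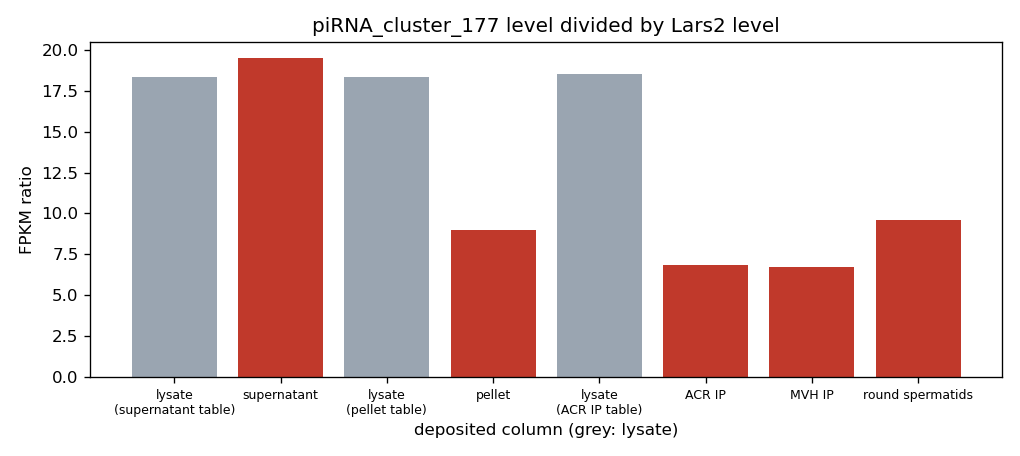
FPKM of piRNA_cluster_177 divided by that of Lars2 in each deposited column, with lysate columns in grey. The lysate and supernatant bars lie between 18.4 and 19.5 and the other 4 between 6.71 and 9.58.

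The entry nearest to the cluster, Mir715, was listed beside it but did not follow it. It was at 1153 FPKM in the lysate and 730 in the supernatant (log2 ratio -0.66, SE 0.33). It was at 2755 in the lysate and 156 in the pellet (-4.14, SE 1.0), and at 2340 in the lysate and 0 in the ACR IP. It was listed at 0 in the MVH IP. Mir715 does not overlap the cluster. Its level divided by the cluster's, in percent, was 24.9% in the lysate of the supernatant table, 13.5% in the supernatant and 1.35% in the pellet. FPKM is per length and Mir715 is far shorter (chr17:39981080-39981190 in mm9), so these percentages are not shares of reads. The SEs of Mir715 were wide beside the cluster's 0.0083 in the supernatant and 0.010 in the pellet. Its reads were not estimated, and its levels of 0 may rest on few reads. No other listed feature lay within 200 kb of the cluster. Near Lars2 the one feature within that distance was Limd1, 16035 bases away and at 0.303 FPKM in the MVH IP.

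Over the supernatant, pellet and ACR IP ratios together, the cluster most like piRNA_cluster_177 was piRNA_cluster_39, at a distance of 3.20 (the square root of the summed squared differences of the 3 log2 ratios). It was followed by piRNA_cluster_163 (3.86), piRNA_cluster_154 (4.38), piRNA_cluster_57 (4.92) and piRNA_cluster_158 (4.98), and the median over 179 clusters was 6.58. None came within 1. Lars2 had Car9 (0.94), Fbxl15 (1.23), Gsg1l (1.25), Nox3 (1.32) and Sap30l (1.42) as its nearest of 1030 named genes, with a median of 4.67. The members lay 1.77 from each other. Of the 5 genes near Lars2, Nox3 had the highest lysate level, at 42.2 FPKM against the 604 of Lars2 in the same table.

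Other genes of the same functions were counted to set the members in place. Of 7 other aminoacyl-tRNA synthetase genes listed in the supernatant table none was 2-fold higher or lower, and their median log2 ratio was 0.03. Of 3 in the pellet table all 3 were at least 2-fold lower, where 86.5% of all features were, and their median was -1.75 beside the all-feature median of -2.20. Their highest pellet level was Yars, the tyrosyl-tRNA synthetase, at 1.53 FPKM, against 1287 for Lars2. In the MVH IP 13 were listed and the highest was Qars, for glutamine, at 5.73 FPKM. Of 20 mitochondrial ribosome and translation genes listed with the pellet 19 were at least 2-fold lower (86.5% over all features), with a median of -1.91, and Mrps25 was the highest in level (8.05 FPKM in the pellet, 46.8 in the lysate). In the ACR IP 3 of 9 were higher and 6 lower, near the 36.4% and 59% over all features, and Mrpl37 stood at 115 FPKM.

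The structured RNA and rRNA list, which holds Mir715, had 8 entries in the pellet table, of which all 8 were at least 2-fold lower (median -2.68), again beside 86.5% of all features. They were Rn4.5s, Mir715, Rmrp, Rpph1, Vaultrc5, Rprl1, Rprl2 and Rprl3. No rRNA gene of the list was among them, so these entries do not show how rRNA itself was divided. Rn4.5s, a small RNA of rodents, went from 3219 FPKM in the lysate to 558 in the pellet, and Rmrp, the RNA of the RNase MRP enzyme that cuts the rRNA precursor, from 193 to 26.3. All 4 entries listed for the ACR IP were at 0 there. Of 6 genes for rRNA processing and RNA polymerase I listed with the pellet 4 were lower and 1 higher, beside 86.5% and 8.75% of all features. The higher one was Polr1a, at 3.78 FPKM against 0.344 in the lysate. Of 4 such genes listed for the ACR IP 2 were at least 2-fold higher and 1 lower, beside 36.4% and 59% of all features. The highest was Npm1, a nucleolar protein gene, at 1097 FPKM against 4.23 in the lysate. Npm1 was at 3.12 FPKM in the pellet against 6.05 in the lysate, and at 34.7 in the MVH IP. In the pellet both members were above every measured entry of these lists in level, and the lists hold few measured genes.

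The reads behind the 2 loci were estimated in the supernatant table alone. Ratios of supernatant to lysate among low features clustered on multiples of 0.667 (509 features, against 4 for a step moved by 1%), so that 1 supernatant read was worth 0.667 of a lysate read. Together with the SEs this gave 47386 lysate and 82648 supernatant reads for piRNA_cluster_177, and 8022 and 13182 for Lars2. The median of the other clusters was 9281 lysate reads. The same numbers imply a counted length of 1.32 kb for the cluster, near its 1379 bases, and 4.11 kb for Lars2, beside the 3894 bases of its transcript and the 95726 bases of its locus.

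Among marker genes of testis cells, all 8 spermatid markers and 6 of 6 spermatocyte markers were listed in the supernatant table. They summed to 466 and 54.8 FPKM in the lysate. Of 6 Sertoli cell markers only Clu was listed (2.08 FPKM), and of 4 blood markers only Hba-a2 (1.32). Of 5 Leydig cell markers 3 were listed (sum 16.7 FPKM), and of 5 spermatogonia markers 2 (sum 2.50). In the pellet the spermatid markers summed to 108 FPKM against 1113 in the lysate of that table, and the 2 listed Leydig markers to 1.60 against 37.3. Kit, the one spermatogonia marker listed there, went the other way, at 18.2 FPKM in the pellet against 5.27 in the lysate. It was at 54.6 in the ACR IP against 1.65 in the lysate, and at 444 in the MVH IP. Lars2 was 1.24-fold above its lysate level in the ACR IP and the highest named gene in the MVH IP. Kit was also listed in round spermatids, at a higher FPKM than in the pellet, while Lars2 had its lowest FPKM there. Each table was normalized on its own, so whether Kit and Lars2 moved together was not tested. Among the 1014 features listed for round spermatids were 1 of 8 spermatid markers (Prm1, 26.8 FPKM) and 1 of 6 spermatocyte markers (Ldhc, 18.3). No Sertoli, Leydig or blood marker was listed there. The part of these markers in the members' values was not tested.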

How the data were processed

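Small RNA was measured in 8 libraries, and the members and gene lists were chosen with earlier results of these data known. Per the submitters' processing notes the authors used TopHat, Cuffdiff and the mm9 build; the sources used here give no version, annotation or rule for reads that match several loci. The authors deposited FPKM values; the supernatant and pellet tables also hold their log2 ratio of lysate to fraction, p-values, q-values and a test statistic, which per the file headers is a score without a fixed range. From these, log2 ratios with 1 FPKM added were computed where the fraction or the lysate reached 1 FPKM, with Python 3.11.15, numpy 2.4.6, pandas 2.3.3 and matplotlib 3.10.9. The SE is the authors' log2 ratio divided by their test statistic. With 1 column per group no test was made. MVH IP rows that share a symbol and a locus were summed, and 1 column of long RNA was not used. Features were named by rule: the members, the 5 nearest in ratio, those within 200 kb, members of fixed lists highest in lysate, and those next in rank. The code for ratios and steps was tested on simulated data. Alternatives changed the pseudocount, the filter and the comparison features. RefSeq and GENCODE M21 sequences are of GRCm38.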

Additional observations from a re-analysis of the deposited data

How the results depend on the processing

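The 16 values kept their sign under the 70 alternatives except 1, and 43 alternatives moved the value by less than its tolerance (the 95% interval of the authors' SE, or 0.1 on the log2 scale where there is none). The exception is Lars2 in the ACR IP relative to the median of other named genes, 0.55 as reported. It was -1.82 with comparison genes above 0 in both columns and -1.58 with genes whose locus length was within 3-fold. It was 0.40 with a pseudocount of 10 FPKM, 0.73 with genes at or above 10 FPKM and 7.34 with the 20 nearest in lysate level. With the 20 nearest, the values relative to the median were 0.31 (supernatant, cluster), 0.21 (supernatant, Lars2), 2.60 (pellet, cluster), 3.68 (pellet, Lars2) and 6.28 (ACR IP, cluster). With a pseudocount of 10 FPKM they were 2.43 (pellet, cluster), 1.69 (pellet, Lars2), 4.59 (ACR IP, cluster), 8.38 (MVH IP, Lars2) and 1.92 (round spermatids, Lars2). With 0.1 FPKM they were 3.74 (pellet, Lars2), 6.39 (ACR IP, cluster) and 10.57 (MVH IP, Lars2). With the filter at 10 FPKM, Lars2 gave 0.16 (supernatant) and 3.45 (pellet). With lengths within 3-fold, they were 2.99 (pellet, Lars2), 5.85 (ACR IP, cluster), 6.91 and 10.62 (MVH IP, cluster and Lars2) and 1.43 and 2.37 (round spermatids, cluster and Lars2). With genes at 0 included, Lars2 in the MVH IP gave 11.13. These alternatives differ in which features are compared or in the constant added; a further cause was not tested. No paired analysis was possible because the groups have 1 column each, and no replicate could be left out. The depth of the pellet, IP and round spermatid columns was not recovered here.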
